A study of Mus musculus with 9 samples.

Results

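The microRNA precursor genes of mouse embryonic stem cells were described here in lines derived from naturally conceived and from in vitro fertilized (IVF) blastocysts. Members were the transcript clusters, the gene-level units of the array, that the platform annotation names with a single symbol beginning with Mir and a digit, host transcripts with symbols ending in hg being left out. The rule gave 289 clusters of the 23410 with a gene in the annotation, and of 35556 on the arrays. They carry 287 symbols, because Mir713 has 3 clusters. Another 59 clusters that a microRNA gene shares with other symbols are no members, and their values are given only as shared. No cluster of the annotation carries a symbol of Mir290 to Mir295, so that cluster was not analysed here.

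Each of the 3 groups held 3 lines, all labelled as C57BL/6 and female, and each line grew out of an individual blastocyst. The control lines, mESCFB, came from blastocysts flushed from the uterus after natural mating. The mESCKAA lines came from IVF embryos grown at 5% O2 in KSOM supplemented with amino acids. Those of mESCWM came from IVF embryos grown at 20% O2 in Whitten's medium, so that medium and oxygen cannot be told apart. All lines were derived on CF-1 mouse embryonic fibroblast feeders, in medium with serum, LIF and the inhibitors CHIR99021 and PD0325901, and were later passaged on gelatin. The comparisons ask whether the conditions before derivation left a trace in the established lines.

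A microRNA is cut from a longer primary transcript. Drosha and Dgcr8 free a hairpin precursor in the nucleus, Xpo5 exports it, Dicer1 cuts it to a short duplex, and an Argonaute protein carries one strand to messenger RNAs that pair with its seed, the bases near its 5′ end. In embryonic stem cells a few clusters dominate. Those of the miR-290 and miR-302 families, with the related miR-17 group, are known to favour the rapid G1 to S transition, and the miR-302 cluster is a known target of Oct4 and Sox2. The arrays read total RNA isolated on columns that retain mainly longer RNA. A value here is therefore a signal at a precursor gene, on the log2 scale, and mature microRNA was not measured.

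The mature sequences of the genes on which the results turn are printed from RefSeq (build GRCm38.p6), 5′ to 3′, with the seed (bases 2 to 8) in capitals. Of the 289 members, 263 matched at least 1 mature sequence there, with 483 sequences and 383 different seeds in all. The first set shares the seed of the miR-25 and miR-92 family, to which miR-363, the leading gene below, belongs.
miR-363-3p, chrX:52741697-52741718, minus strand: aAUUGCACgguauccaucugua
miR-92a-3p of Mir92-2, chrX:52741854-52741874, minus strand: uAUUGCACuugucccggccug
miR-367-3p, chr3:127545779-127545800, plus strand: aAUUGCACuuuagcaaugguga
miR-25-3p, chr5:138165332-138165353, minus strand: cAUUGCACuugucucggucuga

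The second set holds arms of the miR-302 cluster, shown because its 5 genes all differed in 1 direction below. The printed seed of miR-302c-3p differs from the others because its entry begins at a different base.
miR-302b-3p, chr3:127545275-127545297, plus strand: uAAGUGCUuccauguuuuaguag
miR-302c-3p, chr3:127545406-127545427, plus strand: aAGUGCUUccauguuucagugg
miR-302d-3p, chr3:127545665-127545687, plus strand: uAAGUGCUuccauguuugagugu

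The third set shares the miR-17 seed and comes from paralogous clusters on different chromosomes, and it is shown to place Mir20b beside Mir17.
miR-20b-5p, chrX:52742159-52742181, minus strand: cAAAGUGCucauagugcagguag
miR-106a-5p, chrX:52742541-52742563, minus strand: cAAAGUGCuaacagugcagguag
miR-17-5p, chr14:115043684-115043706, plus strand: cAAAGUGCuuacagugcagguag

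The last mature sequence belongs to the Dlk1-Dio3 region, and the hairpin below it is that of Mir363, with the mature arm in capitals in place of the seed.
miR-377-3p, chr12:109740553-109740574, plus strand: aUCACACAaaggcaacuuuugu
Mir363 hairpin, chrX:52741693-52741767, minus strand: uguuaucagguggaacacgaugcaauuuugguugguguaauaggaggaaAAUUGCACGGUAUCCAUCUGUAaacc

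Most members gave low signals. Their mean log2 level over the 9 lines had a median of 2.55 and ran from 1.18 to 9.35, against a median of 4.67 over all clusters tested. Of the 289, 178 (61.6%) lay at or below the lower quartile of the tested clusters, 3.09, and 39 at or above the median. Equal values in at least 2 of the 9 lines occurred in 222 members (76.8%) and in 62.3% of all clusters tested. The highest members were Mir598, Mir692-1 and Mir6516, with mean levels of 9.35, 8.43 and 7.43, followed by Mir346, Mir667, Mir328, Mir320, Mir212, Mir139 and Mir99b between 6.71 and 5.75. Levels of different clusters depend on their probes and set no order of abundance. MicroRNAs known from differentiated tissues, such as those of brain, muscle and blood, had 17 clusters with a median level of 2.13 and none at or above the median of all clusters. The 3 precursor genes of the p53-responsive miR-34 family were at 1.65 to 2.73.

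**Figure D1:**
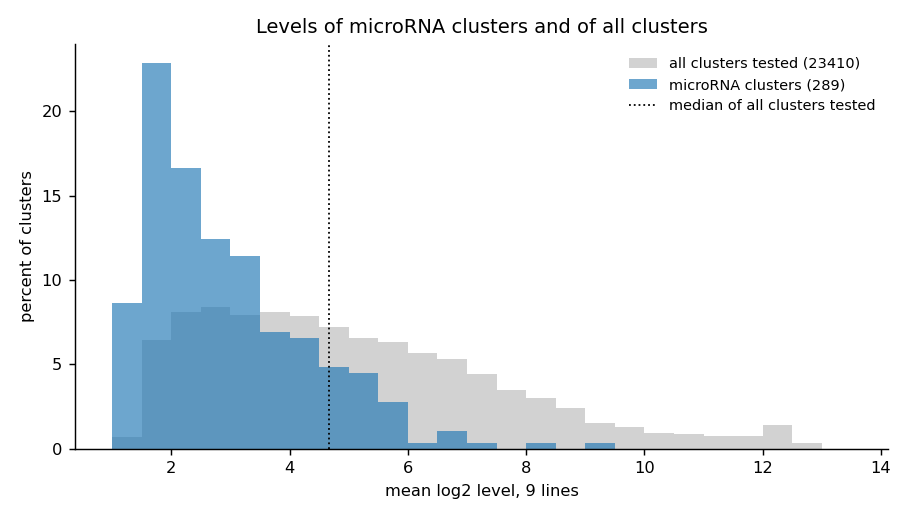
Distribution of the mean log2 level over the 9 lines (x axis) as percent of clusters (y axis) for the 289 microRNA clusters (blue) and all 23410 clusters tested (grey), with the median of all clusters, 4.67, as a dotted line. The microRNA clusters crowd at the low end, with 39 at or above the line.

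RefSeq gives a hairpin for 29 of the 39 members with levels that reached the median. The median GC content of the hairpin was 60.3% among them and 46.1% among the 222 lower members with one. Over the 251 members with a hairpin (86.9% of all), GC content and mean level had a Pearson r of 0.75. That r is a description across genes that share arrays and probe chemistry. The hairpin of Mir363 has a GC content of 41.3%, below the median of the other members at its level.

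Checks of the lines came before the comparisons. All 12 embryonic stem cell markers, among them Pou5f1, Sox2 and Nanog, had mean levels above the median of all clusters, the lowest being 6.63. The Y-linked gene Eif2s3y stood at 4.78 in FB1, 3.72 in KAA2 and 5.19 in WM3, against 1.77 to 2.20 in the other 6 lines, and Uty was also highest in these 3, although all lines are labelled female. Each call of a microRNA cluster below was also tested without these 3 lines. The summed log2 level of 14 feeder fibroblast markers was 70.3 to 71.3 in mESCFB, 71.8 to 73.2 in mESCKAA and 73.3 to 75.5 in mESCWM, without overlap. Of the 14, 12 had a difference above 0 in mESCWM against mESCFB, where 12079 of all 23410 clusters did, and Acta2 was called higher. Their mean levels ran from 1.82 to 9.12 with a median of 4.92, and 8 reached the median of all clusters. The fibroblast matrix genes Lum, Postn and Dcn among them had mean levels of 1.82, 2.29 and 3.14. In such bulk RNA, fewer cells of a type and less RNA per cell cannot be told apart.

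A rank product, the test that the study's methods name, ranked each cluster's difference in all 9 line-to-line pairs of 2 groups. A cluster was called in 1 direction at an estimated proportion of false positives (pfp) under 0.05, over all 23410 clusters. The 9 pairs use each line 3 times. On simulated data with no change put in, the rank product made slightly more calls than it did in the real lines of mESCWM against mESCFB, so that a call is a place in a ranking and the pfp no controlled error rate. The linear fit of limma over all 9 lines gave standard errors and Benjamini-Hochberg adjusted p-values, and an exact permutation test over lines, two-sided, could not give a p below 0.1 with 3 lines against 3. The p-values measure the spread between lines.

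Mir363, at the end of the X-linked miR-106a-363 cluster, a paralog of miR-17-92, was lower in mESCWM than in both other groups. Its levels (cluster 10604587) were 4.94, 6.09 and 5.68 in FB1, FB2 and FB3. They were 4.56, 6.83 and 5.42 in KAA1, KAA2 and KAA3. In WM1, WM2 and WM3 they were 3.94, 3.53 and 4.93. The highest mESCWM line, WM3, came within 0.015 of the lowest mESCFB line, FB1, and lay above KAA1. The group means were 5.57 ± 0.58, 5.60 ± 1.14 and 4.13 ± 0.72 (SD, n = 3). Of all 289 members it had the largest SD over the 9 lines, 1.03.

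The difference in Mir363 between mESCWM and mESCFB was -1.44 on the log2 scale (limma SE 0.58), and the rank product called it lower (pfp 0.005). It was 1 of 24 clusters called lower there, 0.103% of those tested, and no other member was called in either direction, where 0.00854% were called higher. Against mESCKAA the difference was -1.47 (SE 0.58). It was called with a pfp of 0, no cluster in the 100 permutations having been as low, where 0.0299% of clusters were called lower. The limma adjusted p-values were 0.819 and 0.771, and the exact permutation p was 0.1 and 0.2. Between mESCKAA and mESCFB the difference was 0.03 (SE 0.58, limma adjusted p = 1.000). KAA1 and KAA2, the lowest and highest mESCKAA lines, lay 2.26 apart, more than any of these group differences.

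The calls for Mir363 depended on the lines included, as did the number of calls over all clusters. Against mESCFB the call was lost without FB2, FB3 or WM2, with differences of -1.18, -1.38 and -1.14. Over all clusters, the 24 called lower there became 3, 1 and 10 in these settings. Against mESCKAA the Mir363 call was lost without KAA2, KAA3, WM1 or WM2, with differences of -0.86, -1.56, -1.38 and -1.17. The 7 clusters called lower there became 3, 3, 1 and 5. The Mir363 call was kept in both comparisons without FB1, KAA2 and WM3 together, the lines with Y-linked signal, with differences of -2.15 from mESCFB and -1.26 from mESCKAA. Without these 3 lines the difference between mESCKAA and mESCFB became -0.90 (pfp 0.227), and without 1 line at a time it ran from -0.58 to 0.55. The summed feeder marker level moved opposite to Mir363 between mESCWM and the other groups, and its part in the result was not tested. Over all 790 X-linked clusters the median difference was -0.07 in both IVF groups against mESCFB, and over the 38 X-linked members it was 0.03 in mESCKAA and 0.00 in mESCWM.

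The other members of the miR-106a-363 cluster did not pass the test in any comparison. Mir20b, which carries the miR-17 seed, was at 3.54, 3.23 and 2.32 in mESCFB, 2.83, 3.32 and 2.05 in mESCKAA, and 2.35, 2.00 and 2.61 in mESCWM. Its groups overlapped, and its difference in mESCWM against mESCFB was -0.71 (SE 0.38, pfp 0.179). Mir92-2, the nearest neighbour of Mir363 in the sequences above, had levels of 2.68 to 3.38 in all 9 lines and differences of 0.20, -0.02 and -0.21 in mESCKAA against mESCFB, mESCWM against mESCFB and mESCWM against mESCKAA. Mir19b-2 had differences of -0.04, 0.12 and 0.16 in that order, and Mir106a of 0.23, -0.13 and -0.36. Mir363 was the only one of the 5 with a mean level above the median of all clusters. Whether the probes of the other 4 could have shown a like change at their levels of 2.07 to 3.05 was not tested.

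The genes whose levels followed Mir363 most closely over the 9 lines were Brms1 (Pearson r 0.95), Snora62 (0.93), Slc25a38 (0.93) and Snora3, with 2 clusters (0.92 each). They are the highest of 10930 single-symbol clusters with a mean level that reached the median, and each r is a description over the same 9 arrays. Brms1 ranged only from 6.10 to 6.65, and Slc25a38, a mitochondrial glycine carrier, from 5.99 to 6.87.

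**Figure D2:**
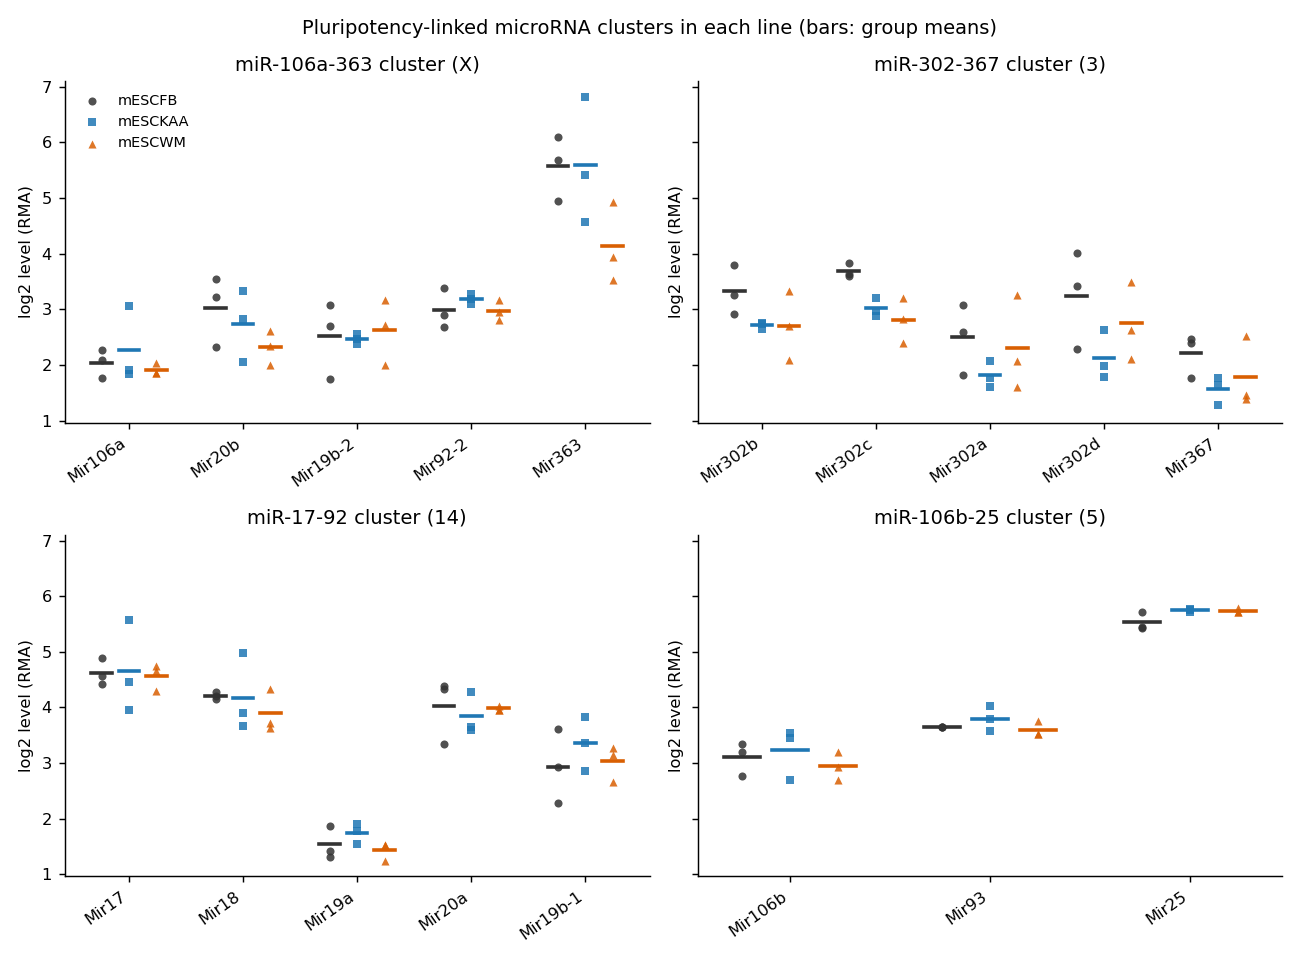
Log2 level (y axis) of each member of 4 pluripotency-linked clusters (x axis, chromosome in parentheses) in the lines of mESCFB (circles), mESCKAA (squares) and mESCWM (triangles), with bars at the group means. Mir363 is lower in mESCWM, and all 5 members of the miR-302 cluster with Mir367 have their highest mean in mESCFB. The miR-17-92 and miR-106b-25 members overlap between groups, except Mir19a, whose mESCWM lines lie below the mESCKAA lines.

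The miR-302 cluster with Mir367, whose 5 hairpins lie on chromosome 3 within the gene Larp7, was lower on average in both IVF groups than in mESCFB. In each IVF group all 5 members had a difference below 0, with medians of -0.67 in mESCKAA and -0.49 in mESCWM. Over all clusters tested those medians were 0.01 and 0.00. The 2 comparisons share the mESCFB lines. The 12 embryonic stem cell markers had 10 differences below 0 in mESCKAA, with a median of -0.17, and 8 in mESCWM, with a median of -0.14. Their summed log2 level was 101.7 to 106.0 in mESCFB, 99.6 to 102.6 in mESCKAA and 99.4 to 106.3 in mESCWM, and its part in the result was not tested. All mean levels of the cluster, 1.85 to 3.17, were below the median of all clusters, and its members share much of their sequence, so that probes may read more than 1 of them.

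Mir302d (cluster 10495929) was the only member called between mESCKAA and mESCFB. Its levels were 2.28, 3.42 and 4.00 in FB1, FB2 and FB3, and 1.78, 1.98 and 2.63 in the mESCKAA lines. FB1 lay within the range of mESCKAA and the other mESCFB lines above it. The difference was -1.11 (SE 0.48, pfp 0.0225, limma adjusted p = 0.918, exact permutation p = 0.2). In this comparison 0.0982% of clusters were called lower and 0.0128% higher. In WM1, WM2 and WM3 Mir302d stood at 3.50, 2.63 and 2.11, and its difference of -0.49 from mESCFB was not called (pfp 0.301). The call was lost without any one of FB2, FB3, KAA1, KAA2 and KAA3, where the differences ran from -1.35 to -0.72, and when all clusters of the arrays were ranked, and it was kept without FB1, KAA2 and WM3 together. Without FB2, FB3, KAA1, KAA2 and KAA3 in turn, the 23 clusters called lower over the array became 0, 0, 13, 17 and 7.

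Mir302c separated the control lines from the IVF lines most evenly. Its levels (cluster 10495925) were 3.64, 3.83 and 3.60 in mESCFB, 2.89, 3.19 and 2.97 in mESCKAA, and 3.19, 2.82 and 2.40 in mESCWM. All 3 mESCFB lines lay above all 6 IVF lines. The differences were -0.67 (SE 0.19, pfp 0.121, limma unadjusted p = 0.00591) in mESCKAA and -0.89 (SE 0.19, pfp 0.0508, limma unadjusted p = 0.00113, adjusted p = 0.668) in mESCWM, just outside the threshold, and neither was called. After quantile normalization, and without WM1, the rank product called the second of them.

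Mir302b also had all mESCFB lines, at 3.80, 2.92 and 3.26, above the mESCKAA lines at 2.74, 2.75 and 2.65. Its mESCWM lines, at 3.33, 2.70 and 2.09, spread over both. Its differences were -0.61 in mESCKAA and -0.62 in mESCWM (SE 0.31 each), without a call. For Mir302a the differences were -0.68 and -0.19, and for Mir367, which carries the seed of Mir363, -0.64 and -0.42. In all 5 genes WM1 was the highest and WM3 the lowest of the mESCWM lines. Without WM1 the median difference of the 5 in mESCWM against mESCFB was -0.87, and without WM3 it was -0.21 with 1 of the 5 above 0. The 2 clusters of Larp7 itself, a stabiliser of 7SK RNA, differed by -0.25 and -0.34 in mESCKAA and by -0.13 and 0.02 in mESCWM, with none called.

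The miR-17-92 cluster on chromosome 14, which promotes proliferation and is induced by Myc, had 5 members and no call. Mir17 was at 4.42, 4.57 and 4.89 in mESCFB, 4.45, 3.95 and 5.57 in mESCKAA, and 4.29, 4.65 and 4.74 in mESCWM, with full overlap. The differences of Mir17, Mir18, Mir19a, Mir20a and Mir19b-1 ran from -0.19 to 0.42 in mESCKAA and from -0.32 to 0.09 in mESCWM against mESCFB. In mESCWM against mESCKAA they ran from -0.32 to 0.14. Of these genes Mir19a alone had all mESCWM lines below all mESCKAA lines (exact permutation p = 0.1). Of all clusters, 4.63% were lower without overlap in that comparison. The cluster that Mir92-1 shares with the host transcript Mir17hg was at 4.06, 3.73 and 4.19 in mESCFB, 4.00, 4.33 and 5.25 in mESCKAA, and 2.80, 4.09 and 3.50 in mESCWM. It was called lower in mESCWM than in mESCKAA (-1.06, SE 0.38, pfp 0.018, limma adjusted p = 0.771), although WM2 lay above KAA1. That call was lost without KAA2 (-1.16), KAA3 (-0.70) or WM1 (-0.73), without FB1, KAA2 and WM3 together (-1.18), and when every cluster on the array was ranked (pfp 0.149). The other cluster of Mir17hg, with a difference of -0.35, was not called. Which RNA the shared cluster read cannot be told apart.

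The miR-106b-25 cluster lies within Mcm7, a subunit of the replicative helicase. Mir25 was at 5.45, 5.71 and 5.43 in mESCFB, 5.76, 5.71 and 5.77 in mESCKAA, and 5.79, 5.72 and 5.71 in mESCWM. FB2 matched the IVF lines and the other control lines were lower. The differences of 0.21 in mESCKAA and 0.21 in mESCWM (SE 0.09 each, limma adjusted p = 0.918 and 0.819) were not called. Mir93 differed by 0.14 and -0.06 and Mir106b by 0.13 and -0.16, while Mcm7 differed by -0.10 and 0.02, none called.

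By seed, the 6 members with the seed of Mir363, namely Mir25, Mir32, Mir363, Mir367, Mir92-2 and Mir92b, had a median difference of -0.21 in mESCWM against mESCFB, with 5 below 0. The 6 with the miR-17 seed (Mir17, Mir20a, Mir20b, Mir93, Mir106a and Mir106b) all lay below 0 there, between -0.71 and -0.04, with a median of -0.10. Of these 12 genes Mir363 alone was called. Mir92b, on chromosome 3 but outside the miR-302 cluster, was at 4.95, 5.34 and 4.91 in mESCWM against 5.45, 5.43 and 5.57 in mESCKAA. Its groups did not overlap, and the difference of -0.42 (SE 0.12, limma adjusted p = 0.771) was not called.

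The imprinted Dlk1-Dio3 region of chromosome 12 expresses a long array of microRNAs from the maternal chromosome, with the transcripts Meg3, Rian and Mirg, and its silencing is known to mark pluripotent lines of reduced developmental potential. It gave 39 of the 289 members. Their median differences were 0.05 in mESCKAA and 0.03 in mESCWM against mESCFB, and -0.04 between the IVF groups.

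Mir377 (cluster 10398432) was called higher in mESCWM than in mESCKAA, where 0.248% of clusters were called higher. Its levels were 3.15, 3.02 and 3.52 in mESCWM, 2.47, 2.19 and 2.21 in mESCKAA, and 2.52, 5.05 and 2.51 in mESCFB. The IVF groups did not overlap, and FB2 alone stood above both. The difference was 0.94 (SE 0.59, pfp 0.0261, limma adjusted p = 0.803, exact permutation p = 0.1). The call was lost without any one of KAA2, KAA3 and the 3 mESCWM lines, where the differences ran from 0.80 to 1.05, without FB1, KAA2 and WM3 together (0.75), and when all clusters of the arrays were ranked. Without KAA2, KAA3, WM1, WM2 and WM3 in turn, the 58 clusters called higher over the array became 62, 42, 39, 19 and 20.

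In the cluster that Mir410 shares with Mirg, FB2 was also the highest line and the mESCWM lines lay above the mESCKAA lines. This shared cluster was at 2.51, 4.28 and 2.54 in mESCFB, 2.22, 2.30 and 2.34 in mESCKAA, and 3.88, 2.71 and 3.87 in mESCWM. It was called higher in mESCWM than in mESCKAA (1.20, SE 0.48, pfp 0.00522, limma adjusted p = 0.771), a call lost without WM1 (1.00), without WM3 (1.01), without FB1, KAA2 and WM3 together (1.02) and when every cluster on the array was ranked (pfp 0.0553). Meg3 and Rian were not called in any comparison, and FB2 was their highest line, at 8.21 and 5.66. FB1 was their lowest, at 5.22 and 2.62. A list of 6 markers of the 2-cell-like state gave 3 clusters, of AF067061, Gm5662 and Tcstv3. Their summed level was 18.5 in FB2 and 7.79 and 9.07 in the other mESCFB lines, 7.45 to 8.19 in mESCKAA, and 10.2 to 14.3 in mESCWM. The rank product called 2 of them higher in mESCWM than in mESCKAA and 1 lower in mESCKAA than in mESCFB. Of all clusters, 0.248% and 0.0982% were called so. The part of these markers in the results for Mir377 and the shared cluster was not tested. Mir382 was at 1.78, 2.54 and 2.40 in mESCWM against 1.53 to 1.79 in the other 6 lines, with differences of 0.51 from mESCFB and 0.54 from mESCKAA, not called. Mir495 reached 2.99 in WM3 against 1.16 to 1.93 elsewhere.

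**Figure D3:**
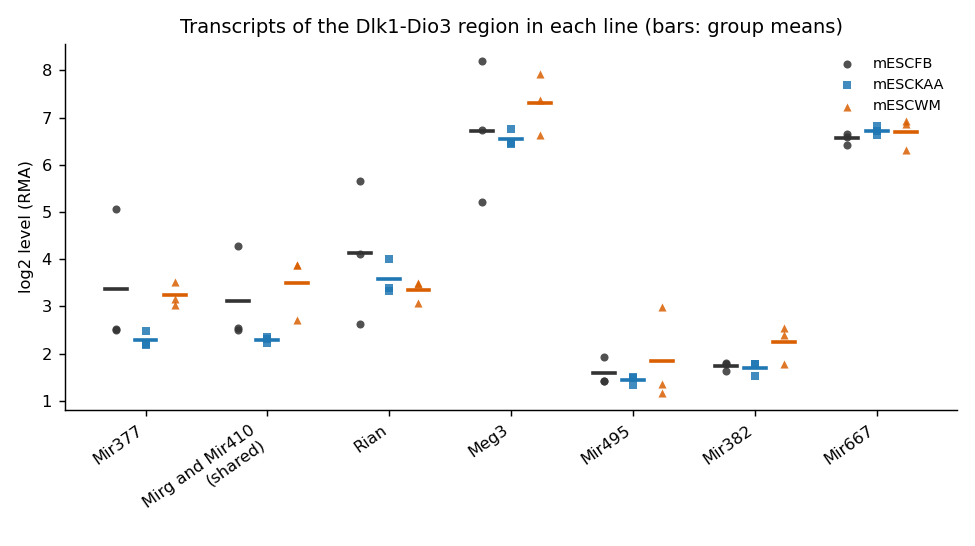
Log2 level (y axis) of transcripts of the Dlk1-Dio3 region (x axis) in the lines of mESCFB (circles), mESCKAA (squares) and mESCWM (triangles), with bars at the group means. For Mir377 and the cluster shared by Mirg and Mir410 the mESCWM lines lie above the mESCKAA lines, and FB2 is the highest line of all.

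Over all 289 members, limma called none in any comparison after adjustment, as it called 0% of all clusters. At an unadjusted p under 0.05 it gave 21 members (7.27%) between mESCKAA and mESCFB, 15 (5.19%) between mESCWM and mESCFB and 24 (8.30%) between the IVF groups, against 4.81%, 5.89% and 6.29% of all clusters. In mESCKAA against mESCFB 19 of the 21 were higher, where 638 of the 1126 among all clusters were (2.73% of those tested). In mESCWM against mESCKAA 22 of the 24 were lower, where 770 of the 1473 among all clusters were (3.29%).

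Outside the clusters above, no difference was called. In mESCKAA against mESCFB, Mir218-1 (0.51), Mir200c (0.49), Mir326 (0.41) and Mir150 (0.37) had the highest. Mir200c belongs to the family that maintains the epithelial state by acting on Zeb1 and Zeb2. Mir677, encoded on chromosome 10, was at 4.09, 4.95 and 4.34 in mESCFB, 3.51, 3.61 and 4.27 in mESCKAA, and 4.04, 3.20 and 3.81 in mESCWM. All mESCWM lines lay below all mESCFB lines, with a difference of -0.78 (SE 0.30, pfp 0.144), and its difference in mESCKAA was -0.66. In mESCWM against mESCFB, Mir669b (0.44), Mir297b (0.44), Mir301b (0.39) and Mir107 (0.36) had the highest values after Mir382. Leaving out 1 line at a time moved that of Mir301b between -0.09 and 0.70, through 0, and that of Mir297b between 0.06 and 0.65. Between the IVF groups Mir15a, a member of a cluster that restrains cell cycle genes, differed by -0.47 and 1 of the 3 clusters of Mir713 by -0.44 (limma unadjusted p = 0.00396), while the other 2 differed by -0.14 and -0.04.

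**Figure D4:**
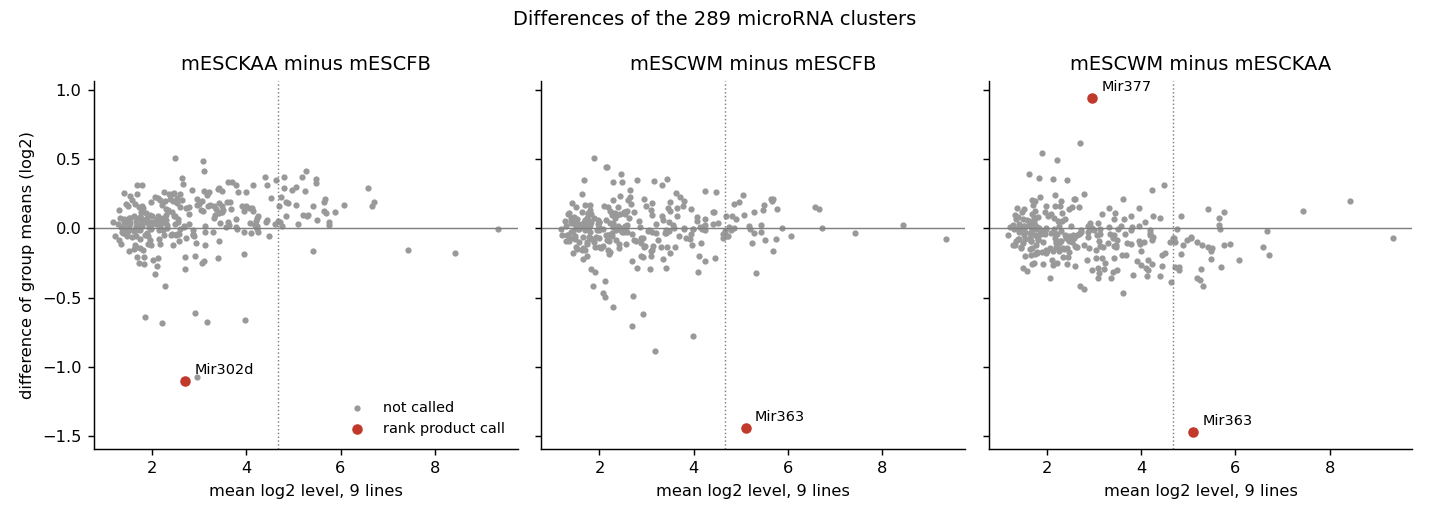
Difference of group means on the log2 scale (y axis) against the mean log2 level over 9 lines (x axis) for the 289 microRNA clusters in each of the 3 comparisons, with rank product calls in red and the median level of all clusters as a dotted line. The 4 calls are Mir302d (-1.11), Mir363 (-1.44 and -1.47) and Mir377 (0.94). All other points lie between -1.07 (Mir377 in mESCKAA minus mESCFB) and 0.62 (Mir302d in mESCWM minus mESCKAA).

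The members as a whole were slightly higher in mESCKAA than in the other groups. Of the 289, 199 had a difference above 0 against mESCFB, with a median of 0.06, and 200 one below 0 in mESCWM against mESCKAA, with a median of -0.06. The medians over all clusters tested were 0.01 and -0.01. The first count was 173 after quantile normalization, 186 with each array centred on its median and 174 without FB1, KAA2 and WM3 together, with medians of 0.03, 0.04 and 0.03. The second was 179, 200 and 181 in that order, with medians of -0.05, -0.07 and -0.04. All 8 clusters of primitive endoderm markers lay above 0 in mESCKAA against mESCFB, with a median of 0.27, and below 0 in mESCWM against mESCKAA, with a median of -0.50, none of them called. Their summed log2 level was 34.1 to 43.3 in mESCFB, 37.3 to 46.4 in mESCKAA and 34.7 to 37.2 in mESCWM, and its part in the shift was not tested. In mESCWM against mESCFB, 146 lay above 0 and 143 below, and 128 and 161 after each array was centred on its median. Groups did not overlap in 32 members (11.1%) higher and 8 (2.77%) lower in mESCKAA than in mESCFB, against 4.38% and 3.7% of all clusters. The counts were 5 (1.73%) higher and 15 (5.19%) lower in mESCWM than in mESCFB, against 3.58% and 4.55%. They were 3 (1.04%) higher and 26 (9.00%) lower in mESCWM than in mESCKAA, against 4.03% and 4.63%.

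Single lines moved with this shift. Of the 39 members with levels that reached the median, 35 had a difference above 0 in mESCKAA against mESCFB, with a median of 0.16. Of all 11705 clusters at such levels 4640 did, with a median of -0.03. Among the 39 members, FB1 was the lowest line in 15 (38.5%) and WM1 in 11 (28.2%), and KAA2 was the highest in 15 (38.5%) and WM2 in 11 (28.2%). Over all clusters tested these shares were 12.6%, 14.7%, 15.0% and 12.7%. The median deviation from a member's 9-line mean was -0.17 in FB1, -0.17 in WM1, 0.16 in KAA2 and 0.13 in WM2, so that lines of mESCWM deviated in opposite directions. Without FB1, KAA2 and WM3 together, 23 of the 39 were above 0 in mESCKAA against mESCFB, with a median of 0.07. Over the 251 members with a hairpin, GC content and the difference between mESCKAA and mESCFB had a Pearson r of 0.31, again a description across genes. The deviation of a line had an r with GC content of -0.29, -0.10 and -0.03 in FB1, FB2 and FB3, of 0.17, 0.20 and 0.13 in KAA1, KAA2 and KAA3, and of -0.25, 0.34 and -0.11 in WM1, WM2 and WM3. It was below 0 in all mESCFB lines and above 0 in all mESCKAA lines. The part of these line and GC patterns in the shift was not tested.

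**Figure D5:**
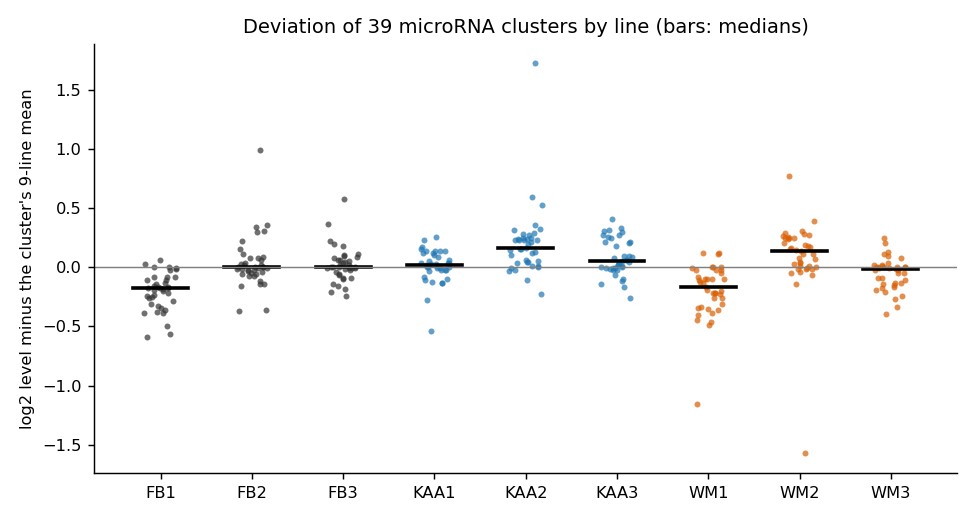
Deviation of each of the 39 microRNA clusters at or above the median level from its own 9-line mean on the log2 scale (y axis) in each line (x axis), with bars at the medians. FB1 and WM1 sit low (medians of -0.17 each) and KAA2 and WM2 high (0.16 and 0.13), and the points farthest out in KAA2 and WM2 are Mir363.

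The machinery that makes and uses microRNAs showed no call. The list of 30 genes gave 32 clusters, of which none passed the rank product or the limma adjusted threshold in any comparison. An unadjusted limma p under 0.05 was found for 0, 1 (3.13%) and 3 (9.38%) in mESCKAA against mESCFB, mESCWM against mESCFB and mESCWM against mESCKAA. The shares over all clusters were 4.81%, 5.89% and 6.29%. Their median differences were -0.03, -0.01 and -0.02. Dicer1 stood at 7.21 to 7.68, Drosha at 7.57 to 8.05, Dgcr8 at 6.77 to 7.48 and Xpo5 at 8.43 to 8.67 over the 9 lines. Tut7, which adds uridines to precursors, was at 5.69, 5.51 and 5.34 in mESCWM, above the 4.98 to 5.24 of the other 6 lines. Its difference from mESCFB was 0.37 (SE 0.12, limma adjusted p = 0.819). Lin28a, the blocker of let-7 maturation, differed by -0.08 in mESCKAA and -0.23 in mESCWM against mESCFB. Srrt, a partner of the cap-binding complex, differed by -0.25 and -0.31, and Adar, an RNA editing enzyme, by 0.13 and 0.05. The GW182 protein gene Tnrc6c and the Dicer partner gene Prkra had differences of 0.31 and 0.42 in mESCWM against mESCKAA.

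The 9 clusters of let-7 precursor genes, which carry another symbol form and are no members, had levels of 1.68 to 3.99 and no call. Genes described as targets of these families gave 10 clusters from a list of 12, again without a call. Ei24, a p53-induced gene, differed by -0.18 in mESCKAA and -0.15 in mESCWM, the methyl-CpG protein gene Mbd2 by -0.27 and -0.17, and the Hippo kinase gene Lats2 by 0.18 and 0.09. Tgfbr2, the type II TGF-beta receptor, was 0.28 higher on average in mESCWM than in mESCKAA (SE 0.10, limma adjusted p = 0.771). In the same comparison Bcl2l11, a pro-apoptotic gene, differed by -0.22 and Nr2f2, a nuclear receptor gene, by -0.23.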

How the data were processed

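RNA of 9 lines was measured on Affymetrix whole-transcript arrays (Mouse Gene ST), 1 per line. The authors deposited log2 values from RMA, which corrects background, normalises between arrays and summarises probes per transcript cluster. Their processing notes name Affymetrix Expression Console and R 3.1.0. The genome build of the files is not given in the sources used here. Array medians over the 23410 clusters tested were 4.64 to 4.70, and the number of arrays limits the precision. Groups came from the labels. Symbols came from the platform annotation, and all 289 members matched a RefSeq gene identifier. The members and gene lists were chosen with earlier results of these data known.

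The rank product used numpy 2.4.6 (9 pairwise differences, 100 permutations within arrays), and limma 3.58.1 ran in R 4.3.3 with 1 mean per group, both over all clusters with a gene. The scripts were tested on simulated data, where both tests recovered most changes put in. Both also made calls where none was, 36 by the rank product and 15 by limma. The text names the members of the clusters linked to pluripotency, all calls, the 5 largest differences each way per comparison, the 10 highest levels, the 5 largest SDs over lines, host transcripts, the 3 smallest p-values of the biogenesis and target lists per comparison, and the 5 patterns closest to Mir363. Other values were chosen after they were seen. Alternatives changed the set of clusters ranked (every cluster on the array, or those with a mean level reaching the median), the scaling (quantile, or each array's median), the variance model, the threshold, the block of line numbers and the lines included.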

Additional observations from a re-analysis of the deposited data

Results flagged for a closer look

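Mir363 differed between the 2 IVF groups. Its change against the shared mESCFB lines was 0.03 in mESCKAA and -1.44 in mESCWM, and without FB1, KAA2 and WM3 together it was -0.90 and -2.15. The test of the difference between these changes is the comparison of mESCWM with mESCKAA, where the value was -1.47, the rank product pfp 0, the limma adjusted p 0.771 and the exact permutation p 0.2. Without those 3 lines that value was -1.26 (pfp 0.0327).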

How the results depend on the processing

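The count of members called by limma stayed at 0 in all 3 comparisons under every alternative run. The rank product made 1 call between mESCKAA and mESCFB, 1 between mESCWM and mESCFB and 2 between mESCWM and mESCKAA. When every cluster on the array was ranked, and when those under the median level were dropped, these became 0, 1 and 1, the filter leaving out the levels of Mir302d and Mir377. Quantile normalization gave 2 in mESCWM against mESCFB, Mir302c being added, and a pfp threshold of 0.1 also gave 2. Leaving out FB1, KAA2 and WM3 together, an alternative chosen after seeing the data, gave 1 in mESCWM against mESCKAA, and Mir363 differed by -0.90, -2.15 and -1.26 in the 3 comparisons in the order above. Leaving out 1 line at a time gave 0 to 1, 0 to 2 and 0 to 2 calls. The difference of Mir363 then ran from -0.58 to 0.55 in mESCKAA against mESCFB, from -1.84 to -1.14 in mESCWM against mESCFB and from -1.99 to -0.86 in mESCWM against mESCKAA, with the call lost in 7 settings. The cause of these losses was not tested beyond the smaller number of lines. No difference of Mir363 called by the rank product changed sign.

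The line numbers are not stated to pair the lines. With the replicate block the counts of calls were 1, 1 and 2, and Mir363 differed by 0.03, -1.44 and -1.47 with pfp values of 0.931, 0.005 and 0.02. Deviations of lines from their group means had a Pearson r of -0.01 to 0.33 between lines with the same number. With partners sought only in the other groups, 8 of the 9 lines correlated best with a line of their own number. The r with the best partner ran from 0.05 to 0.33, so this is a weak hint from the data and not from the design. Low signals limit the rest: 250 of the 289 members lay below the median level, where equal values were common.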
